A study of Mus musculus with 4 samples.

Results

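Merged loci are the entries of the gene-level comparison that carry 2 or more gene symbols and 1 fold change for all of them. They were found by a comma in the gene field of the authors' deposited table, and 207 of its 26815 entries met that rule. A further 23704 entries carried 1 symbol and 2904 carried none. The study measured polyadenylated RNA in cultures of neural stem cells from the cortex of E14.5 embryos (strain CD-1), with 2 libraries given a scrambled shRNA and 2 libraries given an shRNA against Foxp1, a forkhead transcription factor. The cells were purchased, and for all 4 libraries they were transduced with lentivirus, selected in 0.5 µg/mL puromycin and kept in an adherent layer supplied with EGF and bFGF, so vector, selection and growth factors are shared by both groups. The labels do not say whether the 2 libraries of a group came from separate cultures, so p-values may measure technical spread alone. The table compares a condition coded q2 with a condition coded q1, and no header or label ties either code to an shRNA, so each direction below is that of q2 relative to q1. Fewer cells of a type and less RNA per cell cannot be told apart in these bulk samples.

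Neighbouring genes on 1 strand can be joined in several ways. A read-through transcript starts in the upstream gene and runs into the downstream one, a pair of genes can share a promoter or first exon, and a small RNA can lie in an intron or exon of a longer host transcript. Assemblers such as Cufflinks group transcripts that overlap on a strand into 1 gene unit, and reads in the shared part then count for every symbol of that unit. Families of near-identical gene copies also receive several symbols at 1 place when transcripts of several copies align there.

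Sequences of 2 kinds of merged locus help to show what 1 value stands for. The first kind is the 2 loci that the authors' test called, each of which holds more than 1 start site. The promoter windows below run from 250 bases before to 50 bases after each RefSeq start (GRCm38.p6, 5′ to 3′ on the gene's strand), and capitals mark each CG dinucleotide, which reads the same on both strands. The Jak3 window lies at chr8:71676133-71676432 on the plus strand and the Insl3 window at chr8:71689002-71689301 on the same strand. The window of the read-through gene Tnfsfm13, the table symbol for Tnfsf12Tnfsf13, lies at chr11:69696049-69696348 on the minus strand, and RefSeq gives Tnfsf12 the same 5′ end. The Tnfsf13 window lies at chr11:69685505-69685804 on that strand.
Jak3: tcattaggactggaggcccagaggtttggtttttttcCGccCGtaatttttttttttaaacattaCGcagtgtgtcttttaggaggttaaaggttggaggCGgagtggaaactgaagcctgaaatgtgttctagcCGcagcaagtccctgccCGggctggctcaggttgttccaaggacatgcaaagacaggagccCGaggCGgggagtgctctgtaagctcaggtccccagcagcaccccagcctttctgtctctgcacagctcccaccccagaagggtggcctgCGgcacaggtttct
Insl3: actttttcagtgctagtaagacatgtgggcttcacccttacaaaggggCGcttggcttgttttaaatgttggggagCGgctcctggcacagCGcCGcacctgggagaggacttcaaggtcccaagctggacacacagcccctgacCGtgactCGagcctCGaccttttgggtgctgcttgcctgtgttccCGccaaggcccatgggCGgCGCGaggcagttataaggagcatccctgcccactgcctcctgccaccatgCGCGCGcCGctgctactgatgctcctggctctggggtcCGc
Tnfsfm13: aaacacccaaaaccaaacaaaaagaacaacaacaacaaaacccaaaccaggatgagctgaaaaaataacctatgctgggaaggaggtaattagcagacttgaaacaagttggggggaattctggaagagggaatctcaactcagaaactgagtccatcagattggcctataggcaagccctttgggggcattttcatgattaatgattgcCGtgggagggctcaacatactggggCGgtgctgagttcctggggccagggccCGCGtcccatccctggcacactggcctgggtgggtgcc
Tnfsf13: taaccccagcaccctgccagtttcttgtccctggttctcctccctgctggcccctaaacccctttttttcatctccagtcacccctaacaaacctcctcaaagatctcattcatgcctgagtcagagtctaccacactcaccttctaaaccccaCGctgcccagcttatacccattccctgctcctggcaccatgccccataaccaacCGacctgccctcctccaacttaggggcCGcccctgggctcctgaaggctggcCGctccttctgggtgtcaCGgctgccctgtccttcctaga
The windows held 9 CG dinucleotides for Jak3, 16 for Insl3, 4 for Tnfsfm13 and 5 for Tnfsf13. The median over 32851 RefSeq promoter windows of this length was 7, and 94.6% of them held at least 1.

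The second kind is the merged loci that hold a microRNA, whose mature form is far shorter than a host transcript in the same unit. Some units, such as Mir1291 with Snora34, hold small RNA symbols alone. Of 39 microRNA symbols in merged loci, 25 had a mature sequence in the RefSeq table, and their 46 mature sequences had 43 different seeds. Capitals below mark the seed, bases 2 to 8 from the 5′ end, which pairs with target messages. The first 4 come from loci that were tested and the last 4 from loci that were not, and the last 4 form 2 pairs with a common seed.
miR-22-3p: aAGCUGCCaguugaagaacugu
miR-322-5p: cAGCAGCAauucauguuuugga
miR-503-5p: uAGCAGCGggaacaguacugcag
miR-351-5p: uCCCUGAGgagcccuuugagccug
let-7b-5p: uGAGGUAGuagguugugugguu
let-7c-5p: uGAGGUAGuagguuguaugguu
miR-29b-3p: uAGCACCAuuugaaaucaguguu
miR-29c-3p: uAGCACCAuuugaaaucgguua
The let-7b and let-7c sequences share the seed GAGGUAG, and miR-29b and miR-29c share the seed AGCACCA. In all, 3 seeds occurred in more than 1 mature sequence of the merged loci.

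Of the 207 merged loci, 82 were tested by the authors, or 39.6%, against 52.1% of entries with 1 symbol. Only 2 of the 82, or 2.44%, passed a Cuffdiff q-value of 0.05, whereas 7.63% of all 15315 tested entries did. Both were higher in q2, a direction called in 4.24% of all tested entries, and no merged locus was called among those lower in q2, a direction called in 3.39% of all tested entries. An unadjusted Cuffdiff p under 0.05 was reached by 9 of the 82 merged loci, or 11.0%, against 19.2% of all tested entries. Among tested entries with 1 symbol, 8.84% were called and 21.3% had such a p.

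The locus of Insl3 and Jak3 had the highest fold change of the 2 called loci. Jak3 encodes a tyrosine kinase that relays signals of cytokine receptors in lymphoid cells, and Insl3 encodes an insulin-like peptide hormone best known from the testis. RefSeq places Insl3 (chr8:71689252-71690577) inside the Jak3 gene (chr8:71676383-71690577), both on the plus strand with the same last base, and their start sites are 12869 bases apart. In the authors' deposited table this locus was 3.30-fold higher in q2, with a log2 fold change of 1.72, a test statistic of 2.39, a Cuffdiff p of 0.00015 and a q of 0.00418. Because 1 value covers both genes, the table does not say which of them carried the reads.

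The locus of Tnfsf12 and Tnfsf13 on chromosome 11 was the other called one. Tnfsf12 encodes TWEAK and Tnfsf13 encodes APRIL, ligands of the tumour necrosis factor family, and the symbol Tnfsf12Tnfsf13 names a read-through transcript across both. The read-through gene spans the whole locus, chr11:69682577-69696098, with Tnfsf12 at its upstream end and Tnfsf13 at its downstream end. The authors' deposited table lists it 2.19-fold higher in q2, with a log2 fold change of 1.13, a statistic of 2.57, a Cuffdiff p of 0.00075 and a q of 0.0149. Exons of its symbols overlap, so the value can be assigned to neither ligand.

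Both calls rest on the authors' p-values, which are smaller than their statistics give under a normal distribution. For Insl3 and Jak3 the normal p of the statistic was 0.0170, and for Tnfsf12 and Tnfsf13 it was 0.0102. When such p-values were adjusted over all tested entries by the Benjamini-Hochberg method, 0 merged loci were called, with a smallest adjusted p of 0.204. Of all 15197 entries with a statistic, 425 were called in that setting, or 2.8%, so calls fell over the whole table. Other entries of the authors' deposited table had p-values of this kind too: of 201 tested entries with an absolute statistic within 0.1 of that of Insl3 and Jak3, 179 were called, and of 141 such entries around Tnfsf12 and Tnfsf13, 128 were called. Markers of microglia, immune cells of the brain, were read beside the 2 called loci. By the authors' deposited table, 2 of 4 were tested and neither was called, with log2 fold changes of 0.98 for Cd68 (q 0.415) and 1.37 for P2ry12 (q 0.850), while Cx3cr1 was listed at 3.20 without a test and Aif1 at exactly 0. Their part in the 2 calls was not tested. Of the neural stem cell markers, 10 of 11 were tested, and 6 were called in both directions, as for Tnc at 2.34 and Fabp7 at -1.13 by the authors' deposited table. Other lists held calls too by the authors' deposited table: 3 of 4 astrocyte markers, all lower in q2, with Gfap at -2.06 and Aqp4 at -2.70; 2 of 3 tested oligodendrocyte lineage markers, Pdgfra at -2.83 and Mbp at 1.75; and 2 of 4 tested neuron markers, Syt1 at 1.48 and Elavl3 at -1.26. Of the endothelial and pericyte markers 2 of 4 were tested, and of the fibroblast markers 1 of 4, with 0 called in either list by the authors' deposited table.

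**Figure D1:**
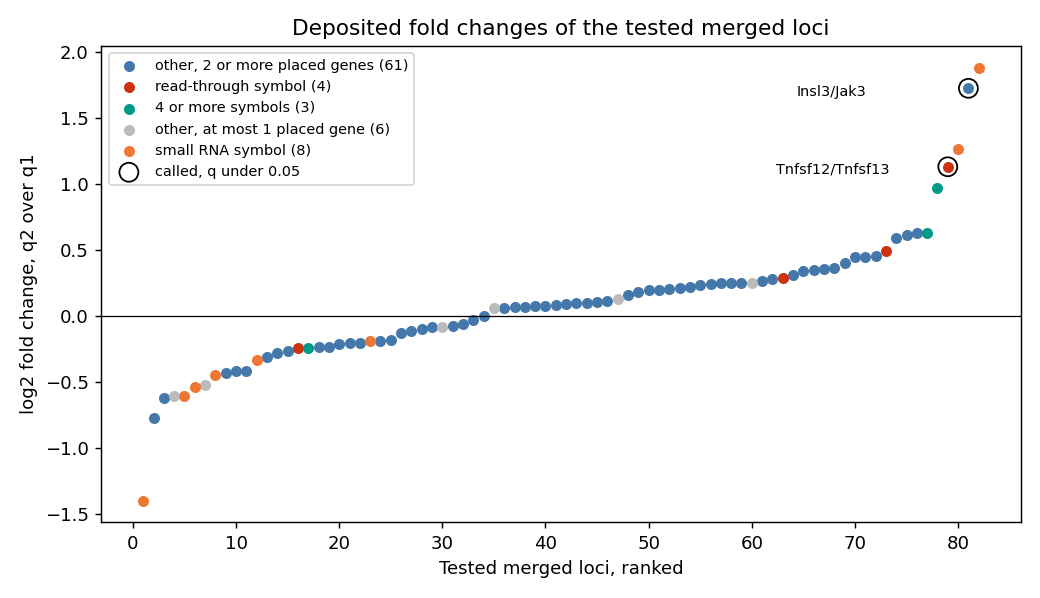
The 82 tested merged loci ranked by the authors' log2 fold change of q2 over q1 (vertical axis, log2 units), with colour for the kind of locus and a ring around the 2 called loci. Values run from -1.40 to 1.88, and the highest point, Dancr with Snora26 at 1.88, was not called, while Insl3 with Jak3 at 1.72 just below it was.

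Across all 82 tested loci, values of the log2 fold change taken from the authors' deposited table had a median of 0.08, with 48 above 0 and 34 below. The median over all finite tested entries was -0.05. In size, 66 of the 82 merged loci lay within 0.5 of 0 on the log2 scale, or 80.5%, against 68.2% of all finite tested entries. That background includes entries without a symbol, whose median absolute log2 fold change was 0.60. The same median was 0.28 in tested entries with 1 symbol and 0.24 in the merged loci, which is a smaller gap. A change of at least 1 in either direction was listed for 5 merged loci, or 6.10%, against 11.7% of all finite tested entries. No tested merged locus was listed at 0 in a condition. Besides loci described below, the unadjusted p under 0.05 was reached by Bfar, an apoptosis regulator whose second symbol 3110001I22Rik names the same gene, at -0.52 and by Adat3, a transfer RNA deaminase subunit joined to Scamp4, at 0.44 in the authors' deposited table.

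Loci with immune genes that were not called lay on both sides of 0. C2 and Cfb, complement components encoded side by side in the major histocompatibility region with a gap of 87 bases, had a log2 fold change of -0.78 in the authors' deposited table (Cuffdiff p 0.0185, q 0.144). The same table holds 2 further entries named Cfb alone at that locus, with log2 fold changes of 0.10 and 0.02, so entries that share a gene name differed in value. The thymosin beta copies Tmsb15b1, Tmsb15b2 and Tmsb15l on the X chromosome, which are not immune genes, were at -0.62 (q 0.589) by the authors' deposited table. The Raet1 locus on chromosome 10, 5 symbols for ligands of the activating receptor NKG2D, stood at 0.97 in the authors' deposited table with a q of 0.373. The class I histocompatibility pair H2-T22 and H2-T9 was listed at -0.61 (q 0.399) and the pair H2-D1 and H2-L at 0.25 (q 0.623) in the authors' deposited table.

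A group of 11 loci with genes of neural adhesion, guidance and synapse was picked by hand after the values were seen. The protocadherin cluster, described below, was not part of it. The group had a median of -0.11 and no call in the authors' deposited table. As 7.63% of all tested entries were called, no call among 11 loci says little about this group. Ntn3, a netrin guidance cue, is joined to Tbc1d24, a synaptic vesicle trafficking gene, and this locus was listed at 0.62 in the authors' deposited table with a p of 0.0138 and a q of 0.12. Galr3, a galanin receptor, is joined to Gcat, a mitochondrial enzyme of threonine breakdown, and stood at 0.63 (p 0.0205, q 0.155) in the authors' deposited table. Nptxr, a receptor for neuronal pentraxins, shares a unit with the chromatin gene Cbx6, and the authors' deposited table lists it at 0.45 with a p of 0.0357 and a q of 0.212. The prion protein gene Prnp, joined to Prnd, was at -0.21, the imprinted pair Snrpn and Snurf at -0.06, and Cntf, a neurotrophic cytokine joined to Zfp91, at -0.20 by the authors' deposited table. Their Cuffdiff q-values in the authors' deposited table were 0.667, 0.931 and 0.701, in that order.

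A group of 13 loci with mitochondrial and lipid genes, also picked by hand after the values were seen, had a median of 0.11. Of these, 9 lay above 0 and none was called in the authors' deposited table. Galr3 with Gcat, at 0.63, was counted with the neural loci instead. The extremes within the group of 13 were Acsl3, an acyl-CoA ligase joined to the retrogene Utp14b, at -0.43 (q 0.259), and Fdx1l, a mitochondrial ferredoxin joined to Raver1, at 0.59 (q 0.269) in the authors' deposited table. Mrps6, a subunit of the mitochondrial ribosome, shares exon sequence with Slc5a3, a myo-inositol transporter, with start sites 14 bases apart, and was listed at -0.42 in the authors' deposited table. With 7.63% of all tested entries called, the lack of calls in groups this small says little about them. A group of 10 loci with genes of transcription, DNA repair and cell division was likewise picked by hand after the values were seen. It does not take in every tested locus with a gene of transcription or chromatin, as Cbx6 was counted with the neural loci. These 10 loci had a median of 0.07 and ranged from -0.23 to 0.29 in the authors' deposited table, again with no call. They include Foxm1, a forkhead factor of the cell cycle, at 0.07, the kinase and transcription factor pair Ak6 and Taf9, which share a start, at -0.08, and Atrip with the exonuclease gene Trex1 at 0.24, all from the authors' deposited table.

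A set of 3 clusters with 4 or more symbols and no small RNA were tested. The protocadherin alpha and gamma cluster on chromosome 18 is 1 entry with 37 symbols and the longest deposited locus, 911.6 kilobases; its genes pair separate variable first exons with constant last exons and encode adhesion proteins of neurons. The authors' deposited table gives it a log2 fold change that was -0.24 (q 0.676). The Ugt1a cluster on chromosome 1, whose glucuronosyltransferases likewise join variable first exons to common last exons, was at 0.63 (q 0.384) in the authors' deposited table. The other clusters of this size, keratins on chromosome 15, Pira receptors on chromosome 7, Klra receptors on chromosome 6 and Ott with 4 genes named Gm on chromosome X, were untested and listed at exactly 0 by the authors' deposited table. With 1 value per cluster, a change in the choice of first exon cannot be read from these entries. Another 3 loci with a read-through symbol beside Tnfsf12 and Tnfsf13 were tested and not called. They were Il4i1 with Nup62 at 0.49, Rbm14 with Rbm4 at 0.29 and Slc10a3 with Ubl4 at -0.24 in the authors' deposited table. Only symbols that join the names of other symbols at the locus were counted, so read-through genes under other names are not among them.

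**Figure D2:**
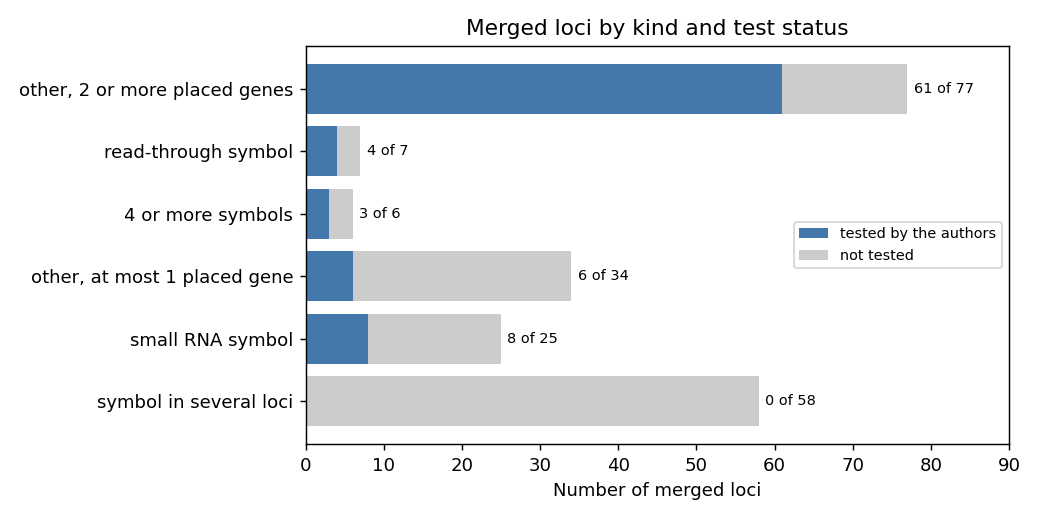
Number of merged loci of each kind (horizontal axis), with tested loci in blue and untested loci in grey. The kinds are exclusive: 61 of 77 were tested among loci with 2 or more placed genes that belong to no other kind, and 0 of 58 among loci with a symbol that recurs at another merged locus.

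Small RNA symbols occurred in 25 merged loci, of which 8 were tested and 0 called in the authors' deposited table, with 0 at an unadjusted Cuffdiff p under 0.05. Among all tested entries 7.63% were called and 19.2% had such a p, so a count of 0 among 8 loci says little. Dividing the absolute log2 fold change by the absolute statistic gives the error that each entry implies, and its median was 2.51 log2 units in these 8 loci, ranging from 1.44 to 44.1, against 0.36 in the other 74 tested merged loci, which ranged from 0.31 to 1.24. How many of all tested entries fall in each of these ranges was not counted, so the values describe the merged loci alone. The median over all finite tested entries was 0.38, and values ran up to 148 among entries with 1 symbol, so large errors also occur outside the merged loci. Dancr, a long noncoding RNA that hosts Snora26, was at 1.88 in the authors' deposited table, above both called loci, with a statistic of 0.65 and a q of 0.699. The host 1810032O08Rik with Snord1a had the lowest value of all, -1.40, with a statistic of -0.82 (q 0.65) in the authors' deposited table. The locus of 5730408K05Rik and Mir5136 was at 1.26 in the authors' deposited table with a statistic of 0.0287 and a q of 0.874.

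The miR-22 host locus, Mir22 with Mir22hg, was at -0.19 (q 0.923), and Sox2ot, the overlapping transcript of Sox2 that is joined here to Mir1897, was at -0.34 (q 0.925) in the authors' deposited table. The X-linked unit of C430049B03Rik with Mir322, Mir351 and Mir503 was at -0.54 (q 0.817), A330076H08Rik with Mir344g at -0.60 (q 0.66) and Mir1291 with Snora34 at -0.45 (q 0.944) in the authors' deposited table. Mature microRNAs carry no poly(A) tail and the RNA was selected for such tails, so these values do not measure the mature sequences printed above. Among the 17 untested loci, Meg3, an imprinted noncoding RNA joined to Mir770, was listed at 0 in q2, and Mir17hg with Mir19b-1 was listed at 0 in q1, in the authors' deposited table. The let-7b and let-7c-2 host locus was listed at 0.20, the miR-29b and miR-29c locus at -0.42 and the miR-124a-1 locus at -0.66 by the authors' deposited table, all untested.

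**Figure D3:**
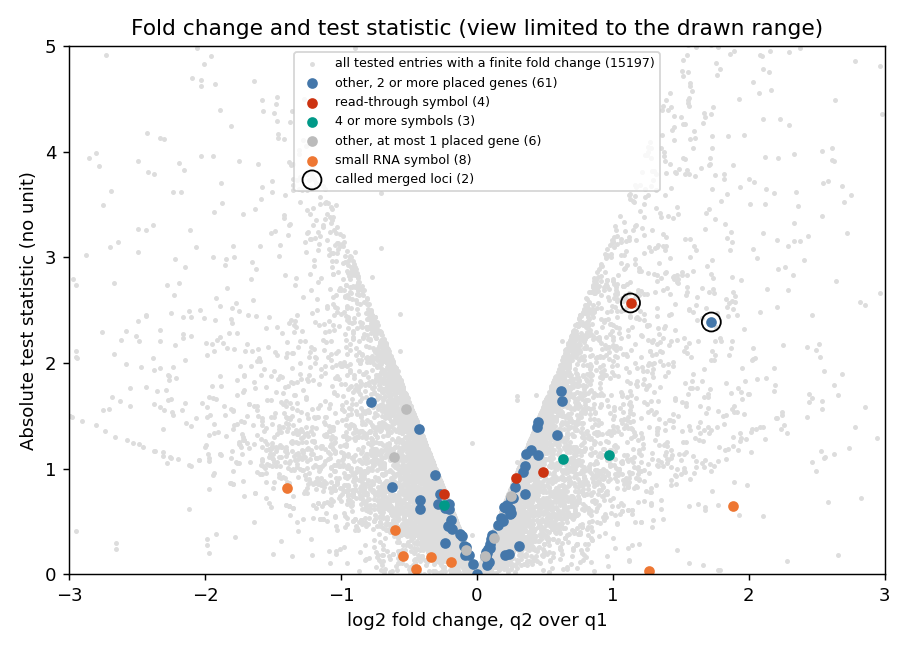
Authors' log2 fold change of q2 over q1 (horizontal axis) against the absolute test statistic without unit (vertical axis) for the tested merged loci in colour and for all 15197 finite tested entries in grey, within the drawn range. The small RNA loci lie low for their fold change, with implied errors of 1.44 to 44.1 log2 units, while the 2 called loci have statistics of 2.39 and 2.57. Implied errors over all finite tested entries had a median of 0.38 and ran up to 148.

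Annotation was added from RefSeq by symbol and position. The 207 loci carry 508 symbol mentions, and 376 of them, or 74.0%, matched a RefSeq gene that lies at the deposited locus. The share was 96.4% in tested loci and 56.9% in untested ones. At least 2 different genes were placed at 120 loci. In 117 of these all genes lie on 1 strand, in 3 a strand is not known from the tables used here, and 0 hold genes on opposite strands. By RefSeq, the gene bodies were nested at 43 loci, overlapped in part at 37 and lay apart at 40. GENCODE exons were known for 2 or more genes at 115 loci, and exons of different genes overlapped at 78 of them. These include loci that lie apart by RefSeq, such as Rhot2 with Wdr90 and Cntf with Zfp91, so the annotations differ there. All start sites of a locus fell within 100 bases of each other at 20 of 118 loci, as for Ak6 with Taf9, Cpne1 with Rbm12 and C1qtnf5 with Mfrp. The median distance, measured between the farthest starts of a locus, was 9940.5 bases. A start shared by only some genes of a locus, as at Tnfsf12 and Tnfsf13, is therefore not counted.

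Of the 120 loci with 2 or more placed genes, both called loci were nested ones, among 28 nested loci tested, against 29 overlapping and 19 separate loci tested without a call in the authors' deposited table. These counts are too small to compare. By the authors' deposited table, the median log2 fold change was -0.08 for nested, 0.20 for overlapping and 0.10 for separate loci.

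Deposited spans ranged from 818 bases for the X-linked pair Cypt1 and Cypt7 to 911588 bases for the protocadherin cluster, with a median of 22909 bases. The alpha globin pair Hba-a1 and Hba-a2 occurred at 2 loci of 822 bases each. After the protocadherins, the longest were the Mir669a group at 879.9 kilobases, Iqcj with Schip1 at 734.3, Gm13306 with LOC100861978 at 573.2 and Gm20823 with Gm20867 at 484.5. The locus field holds the whole stretch that the software analysed together, and 66 merged loci, or 31.9%, had the same locus as another entry. Measured from the first to the last base of the placed genes, the median over 182 loci was 15313 bases. In 46 of these the deposited span was over 1.5 times that length, and 35 of the 46 were untested. Symbols that matched no gene add nothing to this length, and 62 loci had only 1 placed gene, so a large ratio can reflect an unmatched symbol. Some loci differed the other way, as Rbm14 with Rbm4, whose placed genes covered 68722 bases against a deposited locus of 27729. Around the tested merged loci, 57 other named entries had the same locus, 24 of them at the protocadherin cluster alone and 2 of them merged loci that neighbour each other. Of the 57, 42 were tested and 0 called in the authors' deposited table, where 7.63% of all tested entries were called.

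**Figure D4:**
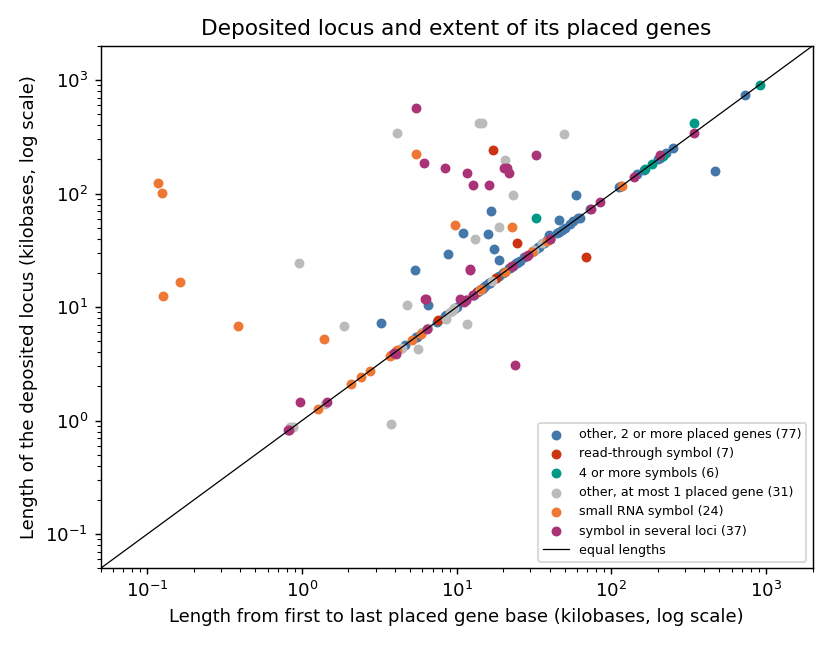
Length of the deposited locus (vertical axis, kilobases, log scale) against the length from the first to the last base of its placed genes (horizontal axis, kilobases, log scale) for the 182 merged loci with a placed gene, coloured by kind. Most points lie on or near the line of equal lengths, while 46 lie more than 1.5 times above it. Some lie below it, where placed genes reach past the deposited locus. Symbols that matched no gene add nothing to the horizontal length.

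A symbol that recurs at another merged locus marked 58 of the 125 untested merged loci and 0 of the tested ones, and 19 symbol sets stood at more than 1 locus. Gm10486 alone appeared in 12 merged loci on the X chromosome, and Rbmy, a germ cell RNA-binding gene family of the Y chromosome, in 4. In total 33 merged loci lay on X or Y and 4 of these were tested. Major urinary protein genes (Mup), natural killer receptors (Klra), Pira receptors and olfactory receptors made up further groups of near-identical copies, which are mostly known from liver, blood cells and nasal epithelium. By the authors' deposited table, 99 of the 125 had a log2 fold change of exactly 0, or 79.2%, against 59.4% of untested entries with 1 symbol. Another 5 were listed at 0 in q1 only, 4 at 0 in q2 only, and 17 had another finite value, the lowest of them -1.04, in the authors' deposited table. Reads from near-identical copies cannot be assigned to 1 of them with certainty, so entries of such copy families are uncertain whatever their value. The 125 also include loci of other kinds, such as 17 with a small RNA symbol, and read assignment was not examined for any of them.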

How the data were processed

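RNA was measured in 4 libraries, 2 per group, grouped by their labels. Per the labels' protocols, poly(A) RNA was isolated and a SOLiD kit for total RNA was used for the libraries. The submitters' processing notes name Cuffdiff, Cufflinks 2.2.1, TopHat2 2.0.9 and build mm10. Annotation, filters and strand use were not given in the sources used here. The authors deposited 1 table, which gives log2 fold changes of q2 over q1 per the file headers. Per the file headers, the test statistic is the authors' score for that comparison. Both p-values and q-values were deposited by the authors, and recomputed Benjamini-Hochberg values matched the q-values within a relative tolerance of 0.001. The 2 columns of per-condition expression match no group and were not used, so levels are not reported, and depth per library is unknown.

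Merged loci, RefSeq (GRCm38.p6) and GENCODE genes, which use the same build as mm10, were joined by symbol and position, with starts counted from 1. Strand came from the RefSeq sequence tables or GENCODE. Kinds were assigned in this order: a small RNA symbol, a read-through symbol, a symbol in several merged loci, 4 or more symbols, and then the number of placed genes. A read-through symbol was taken as one that joins the names of other symbols at its locus. Named loci are all called ones, the 5 highest and 5 lowest uncalled tested ones, those with small RNAs, clusters of 4 or more symbols, the longest and shortest, and loci of neural genes; others named were chosen after their values were seen. The members, lists and groups were chosen with earlier results of these data known. Python 3.11.15 with scipy 1.17.1 and matplotlib 3.10.9 was used, and the adjustment and the gene geometry were tested on simulated data. Alternatives are given in the closing section.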

Additional observations from a re-analysis of the deposited data

How the results depend on the processing

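The count of 2 called merged loci fell to 1 at a q of 0.01 and to 0 with p from a normal distribution of the Cuffdiff statistic, adjusted by Benjamini-Hochberg over all tested entries (425 of 15197 entries called, or 2.8%); 2 merged loci had such a p under 0.05 before adjustment. At a q of 0.01, 4.36% of all tested entries were called. The normal p leaves the fold changes as they are, so only the calls of Insl3 with Jak3 (1.72) and Tnfsf12 with Tnfsf13 (1.13) ended. The count stayed at 2 with adjustment over entries with a symbol, and at a q of 0.1, which could only add loci. It was also 2 with a minimum change of 1, without small RNA loci and with 2 or more protein-coding genes. The same held without entries listed at 0 and without loci of a single gene. Both called loci meet each of these filters, so the filters could not drop them and say nothing about how stable the calls are. The median log2 fold change of 0.08 became 0.13 when centred on the median of all tested entries, 0.10 without small RNA loci and 0.10 with 2 or more protein-coding genes. Centring changed the sign of 2 of 82 loci, Gp1bb with Sept5 to 0.0173 and Fastkd5 with Ubox5 to 0.0462. The median span of 22.9 kilobases over all merged loci became 15.3 from the placed genes of 182 loci. Counts of tested loci, strands, overlaps and small RNA loci stayed within 1.5 times under their alternatives. No paired analysis was possible because the deposited table holds 1 comparison of pooled conditions and no column per library, and for that reason no replicate could be left out. Read depth behind each value is unknown.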
